A study of Homo sapiens with 2 samples.

Results

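F-box proteins are the substrate receptors of the SCF ubiquitin ligases, and their genes carry the symbols FBXW, FBXL or FBXO followed by a number. The genes were examined in an authors' list of RNA regions recovered with YTHDF3 from KYSE30 cells. Of 64 such genes, 43 (67.2%) had at least 1 listed region, with 82 regions in all, out of 18466 regions of 9268 genes in the whole list. Members were found by name alone: every region named FBXW, FBXL or FBXO plus digits and no hyphen was taken, and the family was completed with the protein-coding genes of these symbols in RefSeq. A name of the family without a listed region counts as having no peak. The file's FBXO18 is the DNA helicase gene now called FBH1 and was kept under the name in the file. It entered the family through its listed regions, whereas a renamed gene without a region could not enter. RefSeq also holds 6 pseudogenes with such symbols, and 0 of them had a listed region. FBXW10B was without a region under that symbol, but 2 regions with fold enrichments of 7.53 and 2.87 were listed under its older name CDRT1, so that 44 genes had one when this name was counted.

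KYSE30, a long-established human carcinoma line from the squamous epithelium of the esophagus, was grown in serum-containing medium and left untreated. RNA bound by YTHDF3 was collected by immunoprecipitation into 1 RIP library, and 1 input library of the same cells served as its reference. Neither a control antibody nor cells lacking YTHDF3 was among the samples. No replicate of either library was given, so replicate error is unknown, no condition was tested, and every p below compares these libraries only. Per region the list gives a fold enrichment of RIP over input, a p and an adjusted p, all of them the authors' values, on hg38 coordinates. The read depth behind a region is unknown, so no error of a fold enrichment can be given. Of 8 markers of squamous epithelium 5 had a listed region (TP63, KRT5, KRT14, SOX2 and DSG3), and KRT6A, PKP1 and PERP were without one. Of 8 markers of other cell types 3 had one: CD14 and COL3A1 (7.53, adjusted p 0.254 in both) and SYT1 (11.3, 3.16e-15). These shares, 62.5% and 37.5%, stood beside 40.1% of all protein-coding genes. At an adjusted p under 0.05 the counts were 5 and 1 of 8, beside 34.0%. A list of regions does not measure expression.

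An SCF ligase is built from the cullin CUL1, the RING protein RBX1, the adaptor SKP1 and 1 exchangeable F-box protein, whose F-box binds SKP1 while the rest of the protein binds the substrate. FBXW proteins read substrates through WD40 repeats, FBXL proteins through leucine-rich repeats, and FBXO proteins through other domains. The best known member is FBXW7, a tumour suppressor that binds phosphorylated MYC, cyclin E and NOTCH1 and sends them to the proteasome. YTHDF3 is a cytoplasmic reader of the RNA mark N6-methyladenosine (m6A), which is found mostly near stop codons and in long exons of messenger RNA, and is known for promoting the translation and the decay of marked transcripts.

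The regions were listed as spans of the genome that can include introns. In 12 of the 66 member regions whose gene had a RefSeq start window, or 18.2%, the 5′ boundary lay within 60 bases of an annotated transcription start, against 16% of 14292 such regions over the whole list. The following sequences show where 6 of these regions begin. Each runs from 60 bases before the start to 30 bases into the transcript, read 5′ to 3′ on the strand of the gene, with the bases inside the listed region in capitals. The sequences are RefSeq's (GRCh38.p14).
FBXW7, chr4:152536063-152536152, minus strand: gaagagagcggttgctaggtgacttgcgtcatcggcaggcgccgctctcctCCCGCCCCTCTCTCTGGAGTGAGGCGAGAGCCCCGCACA
FBXW2, chr9:120793387-120793476, minus strand: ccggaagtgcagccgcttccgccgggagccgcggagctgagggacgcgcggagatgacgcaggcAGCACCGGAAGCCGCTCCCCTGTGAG
FBXO5, chr6:152983550-152983639, minus strand: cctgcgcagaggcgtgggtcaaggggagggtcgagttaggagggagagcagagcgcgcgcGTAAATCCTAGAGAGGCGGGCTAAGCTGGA
FBXO46, chr19:45730867-45730956, minus strand: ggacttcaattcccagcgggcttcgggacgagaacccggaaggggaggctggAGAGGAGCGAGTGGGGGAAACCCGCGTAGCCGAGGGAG
FBXO45, chr3:196568600-196568689, plus strand: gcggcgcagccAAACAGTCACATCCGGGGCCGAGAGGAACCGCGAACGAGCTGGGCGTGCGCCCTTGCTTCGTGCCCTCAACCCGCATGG
FBXO4, chr5:41925221-41925310, plus strand: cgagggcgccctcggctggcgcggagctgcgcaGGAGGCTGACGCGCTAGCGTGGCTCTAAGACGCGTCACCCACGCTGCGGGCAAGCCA

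The FBXO5 region began exactly at the annotated start, that of FBXW2 4 bases after it and that of FBXW7 9 bases before it. The FBXO45 and FBXO4 regions began 49 and 27 bases upstream of the start. The FBXO46 region began 8 bases before an internal RefSeq start that lies 2281 bases inside the outer end of the gene, and the outermost stretch of that gene was not in a listed region. The FBXO17 region likewise began 33 bases after an internal start, 23055 bases inside the outer end of the gene. Of the 35 members with a RefSeq start in the table, 25 had no start inside a region and 5 had every start inside one, FBXW7 with 4 starts, FBXO5 and FBXO34 with 2 each, among them. The 25 include members whose region began shortly after a start, such as FBXW2 and FBXO17. How many of all genes had no start inside a region was not counted.

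The share of F-box genes with a region, 67.2%, stood beside 40.1% of protein-coding genes at large (8000 of 19974). All 3 subfamilies stood above that share. A region was listed for 6 of 10 FBXW genes (60%), 12 of 17 FBXL genes (70.6%) and 25 of 37 FBXO genes (67.6%). At an adjusted p under 0.05 there were 34 members with a region (53.1%), beside 34.0% of protein-coding genes, and 9 members had regions only above that threshold. A fold enrichment of at least 5.02, the median of all regions, was reached by 33 members (51.6%), beside 28.7% of protein-coding genes. At an adjusted p under 0.01, 30 of the 64 members had a region, beside 29.6% of protein-coding genes. Without regions that overlap a region of another gene, 35 of the 64 had one, beside 35.3%. Expression was not measured here, so a share joins which genes are expressed with which are enriched. Members with and without a region were of similar genomic length, with medians of 35876 bases over the 43 and 36917 bases over the 21, and ranges of 2301 to 215549 and 6043 to 523064. The length of members was not compared with that of protein-coding genes at large.

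**Figure D1:**
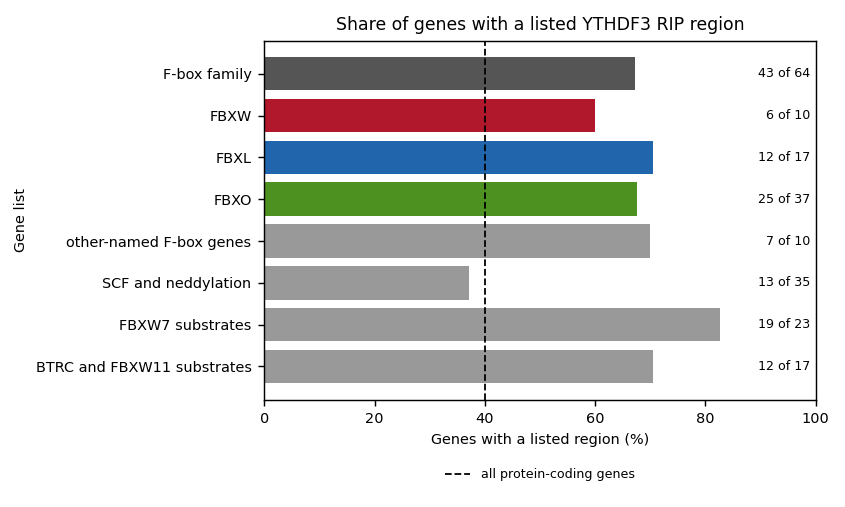
Share of genes with a listed region (horizontal axis, percent) for the F-box family, its subfamilies and related gene lists (vertical axis), with the counts at the right. The dashed line is the share of all protein-coding genes, 40.1%; the family stands at 67.2%, the SCF and neddylation genes at 37.1% and the substrates of FBXW7 at 82.6%.

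The median of the best fold enrichment per gene was 7.53 over the 43 members (quartiles 5.29 and 10.7) and 7.53 over all protein-coding genes with a region (quartiles 4.39 and 11.3). Over the 82 regions the median was 5.61, with a range of 1.27 to 26.3, beside 5.02 over all regions. A larger part of the members' regions than of all regions had an adjusted p of 0.05 or more, 27 of 82 (32.9%) beside 25.6%. More than 1 region was listed for 22 of the 43 members (51.2%), beside 56.1% of protein-coding genes with a region. At an adjusted p under 0.01 it was 11 of 30 members, beside 42.6%. With at least the median fold enrichment it was 9 of 33, beside 36.6%. No member had more than 4 regions, a number reached by FBXW2, FBXO21 and FBXO45, and 11 members had 3.

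**Figure D2:**
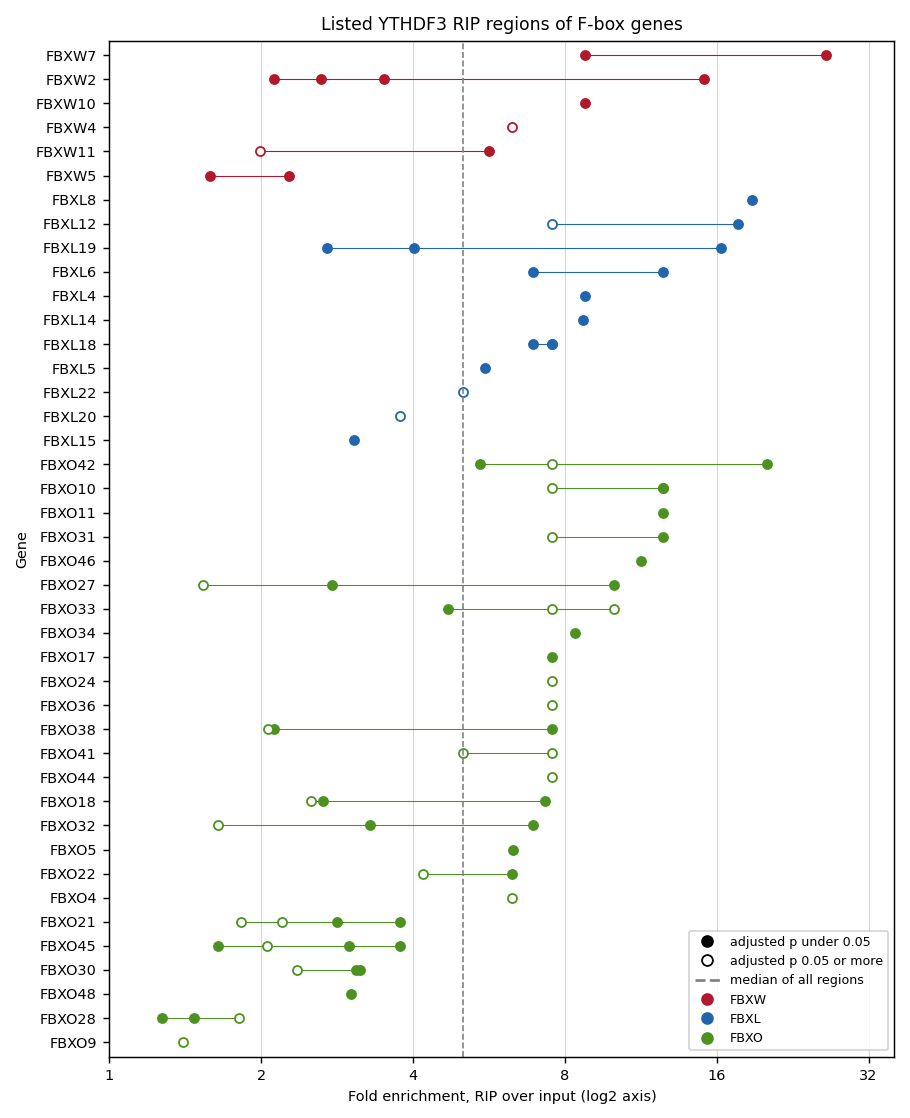
Fold enrichment of RIP over input (horizontal, log2 axis) of 81 listed regions of 42 members, by gene (vertical) and ordered within subfamilies by the best region. Filled circles have an adjusted p under 0.05, open circles 0.05 or more, and the dashed line is the median of all regions, 5.02; FBXW7 reaches 26.3, while all regions of FBXO28 lie under 2.

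FBXW7 had the largest fold enrichment of the family. Its 2 regions lay on chromosome 4, from 152352647 to 152536101 enriched 26.3-fold at an adjusted p of 1e-102, and from 152321737 to 152352557 with 8.78 and 1.26e-30. They were 89 bases apart and together covered 99.4% of the gene, which runs on the minus strand. The first was the only member region longer than 100000 bases, a length that 715 regions of the list exceeded. Its 183455 bases held all 4 RefSeq starts of FBXW7, whose isoforms differ in their first exons, the most 3′ of them 179 bases from the border with the second region. The 26.3 thus belongs to the 5′ part of the gene with the alternative first exons and the 8.78 to its 3′ part. By best fold enrichment FBXW7 ranked 160 among the 9268 genes with a region, and by smallest p it ranked 595. The region also contains the microRNA gene MIR3140 on the same strand.

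The other FBXW genes were lower, and their values were spread widely. FBXW2 had a fold enrichment of 15.1 (adjusted p 6.76e-09) over 2188 bases of its 3′ part. Its further regions had 2.63, 2.12 and 3.50, the last of them over 29159 bases from the annotated start with an adjusted p of 2e-36. The largest value and the smallest p of FBXW2 therefore lay in different regions. FBXW10 had a single region at 8.78 with an adjusted p of 0.024. FBXW10 and FBXW10B are close copies of each other, and how reads shared by copies were placed is not given in the sources used here. FBXW11, the β-TrCP paralog that marks β-catenin and the NF-κB inhibitor for degradation, had 5.65 over 241 bases near its 3′ end (adjusted p 0.0417) and 1.99 over 6801 bases (0.0537). FBXW5 had 2.27 and 1.58, both with adjusted p under 0.05. The single region of FBXW4 spanned 240 bases at the very 3′ end of the gene, enriched 6.27-fold, and its adjusted p of 0.335 was the largest of the whole list. No region was listed for FBXW8, FBXW9 or FBXW12.

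Among the FBXL genes, 4 had a best fold enrichment above 12. FBXL8 reached 18.8 (0.00024) in its only region, which covered 90.4% of the gene and overlapped a region listed for TRADD, the adaptor of tumour necrosis factor signalling. FBXL12 reached 17.6 (1.26e-13) over its last 3073 bases, while a second region of 511 bases near the 5′ end had 7.53 and an adjusted p of 0.254. In FBXL19, which codes for a protein that binds CpG islands, the 3 regions from 5′ to 3′ had fold enrichments of 2.70, 4.01 and 16.3. The smallest adjusted p of FBXL19, 1e-11, belonged to the middle region, and the one at 16.3 had 0.000977. FBXL6 had 12.5 and 6.90, both in regions that overlapped a region of SLC52A2, a riboflavin transporter gene.

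FBXL5, the iron-sensing receptor of the iron regulatory protein encoded by IREB2, had 5.56 with an adjusted p of 2.14e-09. FBXL14, reported to act on the epithelial repressor SNAI1, had 8.67 with an adjusted p of 1e-42 over 97.7% of its gene. The region of FBXL14 overlapped one of WNT5B. FBXL4, a mitochondrial protein gene mutated in mitochondrial DNA depletion, had 8.78 (0.000617). FBXL18 had 3 regions between 6.90 and 7.53, one of which contains the microRNA gene MIR589, and FBXL15 had 3.05. Only regions above the threshold were listed for FBXL22 (5.02, adjusted p 0.202) and FBXL20 (3.76, 0.0631). No region was listed for FBXL2, FBXL7, FBXL13, FBXL16 or FBXL17.

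Among FBXO5, FBXO31, FBXO4, FBXO10 and FBXO11, named here for their known targets, the smallest adjusted p of a gene ran from 1e-149 in FBXO5 to 0.128 in FBXO4. FBXO5 codes for EMI1, an inhibitor of the anaphase-promoting complex, and had the smallest adjusted p of all members, 1e-149, at a fold enrichment of 6.31. Its single region covered the whole gene, from 152970529 to 152983579 on chromosome 6, and overlapped a region of a clone-named gene. FBXO5 ranked 382 among the 9268 genes by p and 5327 by fold enrichment. FBXO31, a receptor for cyclin D1, had 12.5 over 62295 bases (1.58e-35) and 7.53 over the 510 bases at the 3′ end (0.254). Both regions of FBXO31 overlapped regions of clone-named genes. FBXO4, another receptor reported for cyclin D1, had a single region of 151 bases at its start, at 6.27 with an adjusted p of 0.128. FBXO10, reported to act on BCL2, had 12.5 in its first and its last region and 7.53 in the region between them, and the 3 regions covered 99.6% of the gene. FBXO11, a receptor of BCL6 that is mutated in lymphomas, had 12.5 in 917 bases near its 3′ end (0.00162), a region shared with one of the mismatch repair gene MSH6, whose 3′ end lies beside that of FBXO11.

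FBXO42, reported to bind p53, came second in the family with 20.1 (5.01e-20) over 4720 bases of its 3′ part, from 16248692 to 16253411 on chromosome 1. The region before it, of 98816 bases, had 5.44 with a smaller adjusted p, 7.94e-47, and the 748 bases at the 3′ end had 7.53 with 0.254. FBXO34 and its relative FBXO46 had 1 region each: 8.39 with an adjusted p of 1e-107 over 82038 bases, and 11.3 with 7.94e-50 over 20276 bases. FBXO45, which acts with the ubiquitin ligase MYCBP2 in neurons, had 4 regions between 1.64 and 3.76. The region at 3.76 overlapped one of WDR53. The main one, of 16057 bases at 2.98, had an adjusted p of 2.51e-89, so FBXO45 was among the 5 members with the smallest p although its best value was only 3.76.

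**Figure D3:**
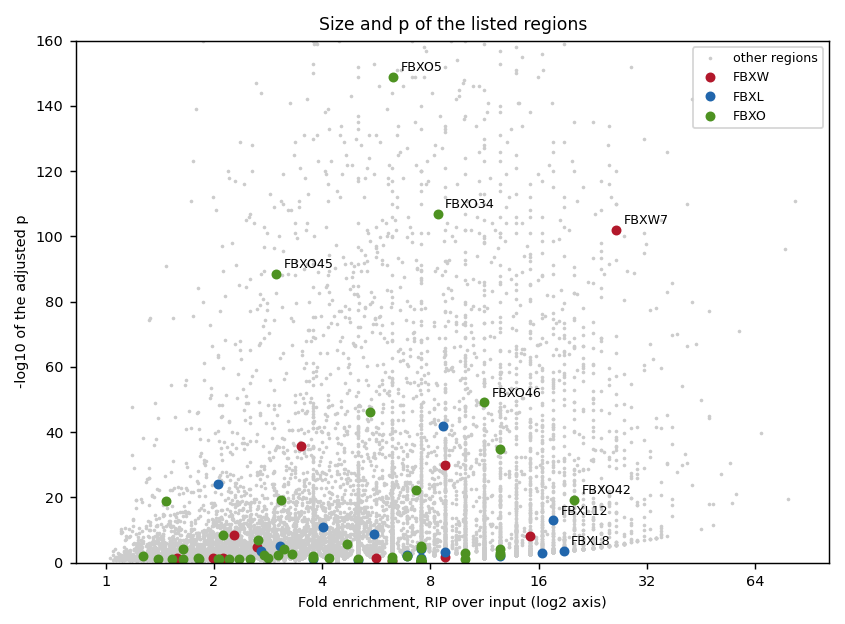
Fold enrichment (horizontal, log2 axis) against the −log10 of the adjusted p (vertical) of each listed region, F-box regions coloured by subfamily and all others grey; 368 regions above 160 on the vertical axis, or listed with an adjusted p of 0, are not drawn. FBXO5 stands highest of the members at 6.31-fold, FBXW7 is high on both axes, and FBXL8 at 18.8-fold lies near the bottom.

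FBXO2, FBXO6, FBXO17, FBXO27 and FBXO44 are a group of close paralogs, with receptors of glycoproteins among them. FBXO27 had 10.0 over 630 bases (0.00102), 2.76 in a region that overlapped one of a clone-named gene, and 1.53. FBXO17 had 7.53 (4.17e-05), and its region overlapped one of a clone-named gene. FBXO44 had 7.53 with 0.0776, and FBXO2 and FBXO6 had no region. At an adjusted p under 0.05, 2 of these 5 genes had a region, a share near the 34.0% of all protein-coding genes.

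The best values of the remaining FBXO genes ranged from 1.4 to 10.0. FBXO33 had 10.0 (0.0776), 4.70 (1.78e-06) and 7.53 (0.254), and only the large middle region, of 32414 bases, was under the threshold. The p of the 10.0-fold region of FBXO33, 0.00813, was below the largest p that came with an adjusted p under 0.05, 0.0155. FBXO33 was the only member with such a region, and the 9 members without a region under the threshold all had p of 0.0209 or more. FBXO38, reported to control the immune checkpoint receptor PD-1, had 7.53, 2.12 and 2.06. The helicase gene FBXO18 had 2.51, 7.29 and 2.65 from 5′ to 3′, with the smallest adjusted p, 5.01e-23, in the middle. FBXO32 codes for atrogin-1, known from muscle atrophy, and its 3 regions, all near the 3′ end of the gene, had 6.90, 3.29 and 1.64 from 5′ to 3′. FBXO22, a receptor of the demethylase KDM4A and of BACH1, had 6.27 (0.024) and 4.18 (0.0562). FBXO30 had 3.14, 2.35 and 3.08, FBXO48 had 3.01, and FBXO21 had 4 regions between 1.82 and 3.76.

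The lowest members were FBXO28, with 1.27, 1.47 and 1.81, and FBXO9, with 1.40 and an adjusted p of 0.0724. The middle region of FBXO28 had an adjusted p of 1.58e-19. The region with the largest fold enrichment was also the one with the smallest p in 11 of the 22 members with several regions. Regions above the threshold were also all that was listed for FBXO24 and FBXO36 (7.53 and 0.254 in both) and for FBXO41 (7.53 with 0.254, and 5.02 with 0.0912). No region was listed for FBXO3, FBXO7, FBXO8, FBXO15, FBXO16, FBXO25, FBXO39, FBXO40, FBXO43 or FBXO47. FBXO43 codes for EMI2, the meiotic relative of EMI1, and FBXO7 for a protein mutated in a juvenile form of parkinsonism.

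Some of these values recur, although the 82 regions had 53 distinct fold enrichments. The pair of 7.53-fold and a p of 0.0331 was the commonest in the list, held by 747 regions (4.05%). The adjusted p printed beside that p ran from 0.0933 to 0.254, and it was 0.254 in the member regions. The pair was held by 8 of the members' 82 regions (9.76%), 1 each in FBXL12, FBXO10, FBXO24, FBXO31, FBXO33, FBXO36, FBXO41 and FBXO42, and was all that was listed for FBXO24 and FBXO36. Of the member regions, 39 (47.6%) had fold enrichments at whole multiples of 1.2546 within the rounding of the list, beside 50.3% of all regions. Under a fold enrichment of 10 such values were held by 25 of 68 member regions (36.8%), beside 39.5% of all regions. Every member region at 10.0 or more was on such a multiple, up to the 26.3 of FBXW7. Most regions of the whole list at 10.0 or more were on one too. In all, 9285 of 18466 regions were on a multiple, of which 5740 were among the 14546 under 10. Best values of 12.5 in FBXL6, FBXO10, FBXO11 and FBXO31 have no order among them, nor do the values of 7.53 that were the best of 7 members.

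Where a gene had several regions, they were often close together. The 39 gaps between neighbouring regions of a member had a median of 239 bases, and 27 of them (69.2%) were of at most 500 bases, beside 49.5% over all genes. Together the regions covered a median of 44% of the gene, introns included, beside 66.7% over protein-coding genes with a region. At least 90% was covered in 10 of the 43 members, beside 32.6% of protein-coding genes with a region (2608 of 8000). At the other end, FBXW4, FBXW11, FBXO4, FBXO11, FBXO36 and FBXL20 had regions over at most 5% of the gene, 5 of them near the 3′ end and that of FBXO4 at the 5′ end. How many of all genes had so little covered was not counted. The largest fold enrichment lay in the most 3′ region of 10 of the 20 members with several regions and 1 largest value, and in the most 5′ region of 6. Over all genes these shares were 43.3% and 38.5%.

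The position of short regions was set beside that over the whole list. Taking regions up to 1000 bases long in genes above 10000 bases, 27 in number, 15 (55.6%, exact 95% interval 35.3 to 74.5) were centred in the final 10% of the gene and 3 (11.1%) in the initial 10%. Over all such regions the shares were 60.9% and 12.9%. At an adjusted p under 0.05 the final 10% held 4 of 10 short member regions (40%), beside 60.7% over the list, and among those of at most 500 bases it held 7 of 14. The interval covers counting error only and takes the regions as independent. Several of them come from the same gene, as in FBXO45 and FBXO21, so it can be too narrow. Which exon or part of the coding sequence a region covers was not analysed here.

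**Figure D4:**
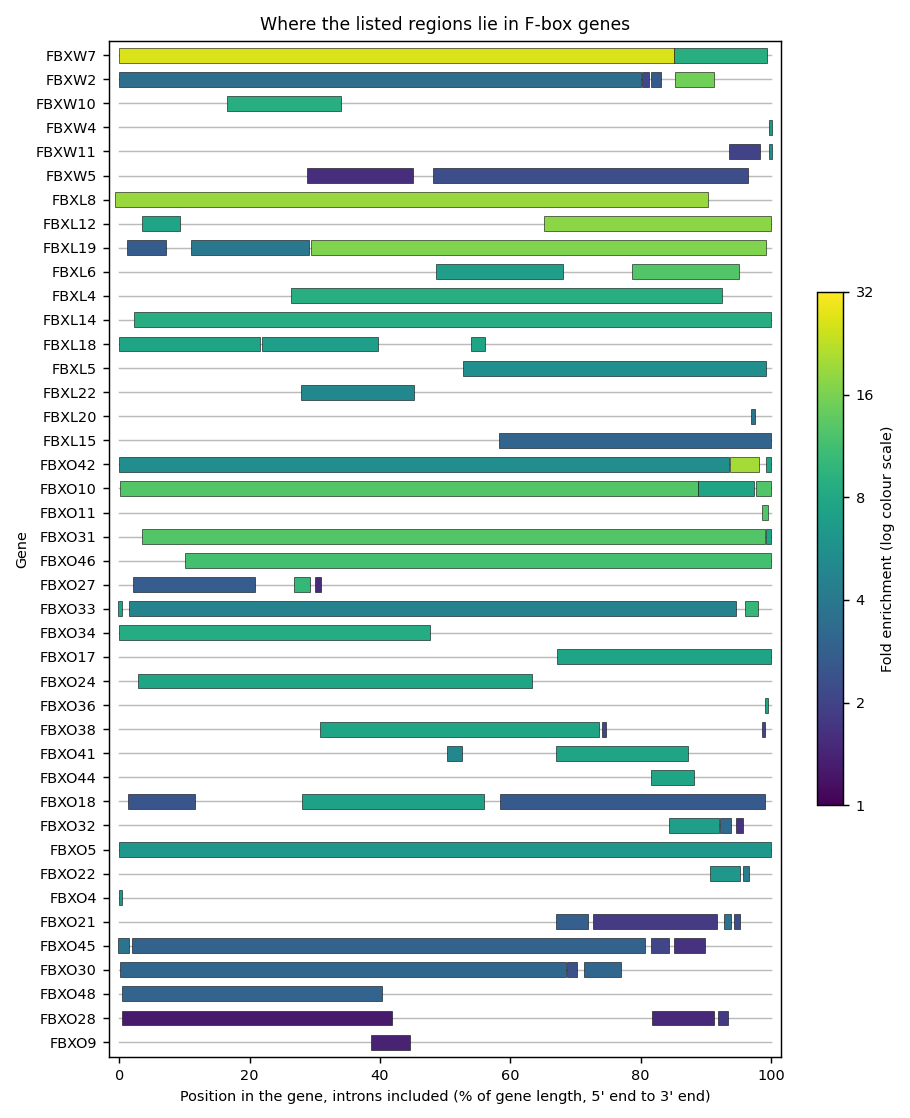
Position of each listed region along its gene (horizontal, percent of the gene's length with introns, from the 5′ to the 3′ end) for 42 members (vertical), coloured by fold enrichment on a log scale. Regions narrower than 0.5% are drawn at that width; FBXW7 changes colour near its 3′ end, from 26.3 to 8.78, and FBXW4, FBXW11, FBXO11 and FBXO36 show narrow regions at the 3′ end.

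F-box proteins work with the shared parts of the ligase and with the enzymes that switch it on and off. A list of 35 genes took in the SCF core, its ubiquitin-conjugating enzymes, the neddylation pathway that activates cullins and the COP9 signalosome that switches them off. Of these 35 genes, 13 (37.1%) had a region, near the 40.1% of all protein-coding genes. At an adjusted p under 0.05, 10 of the 35 had one (beside 34.0%). The count was 8 of 35 at an adjusted p under 0.01 (beside 29.6%) and 7 of 35 with at least the median fold enrichment (beside 28.7%). CUL1, the scaffold, had 13.0 (1.58e-42) and its region overlapped one of another gene. The NEDD8 protease gene SENP8 had 12.5 (0.00347), and UBE2R2, for a ubiquitin-conjugating enzyme of SCF ligases, had 11.3 (0.0407) and its smallest adjusted p, 1.58e-67, in a region at 10.5. The exchange factor CAND1, which lets CUL1 change its F-box protein, had 7.53 (0.148) as its best value and 3.38 in the region of its smallest adjusted p, 3.98e-22. The core subunit genes SKP1 and RBX1 had no region, and of the signalosome genes only GPS1 and COPS5 had one.

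Some genes listed as F-box genes carry other symbols, and whether each of their proteins has an F-box was not checked here. Of 10 such genes, 7 had a region (70%, beside 40.1%), all 7 of them with an adjusted p under 0.05 (beside 34.0%). FBH1, the FBXO18 above, was 1 of them. TSPAN17 had 18.8 (1e-57), the histone demethylase genes KDM2A and KDM2B 15.1 and 12.5, LMO7 11.3 and CCNF, for cyclin F, 7.74. BTRC, the paralog of FBXW11, had 2.14. SKP2, the receptor of the cell cycle inhibitor p27, had no region.

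Genes for known substrates of FBXW7 had a region in 19 of 23 cases (82.6%), beside 40.1% of all protein-coding genes. At an adjusted p under 0.05, 17 of the 23 had one, beside 34.0%. The largest fold enrichments were 32.6 in CEBPA, a region shared with another gene's, 23.8 in JUNB and 17.6 in MYC, the last with an adjusted p listed as 0. No region was listed for MYCN, CCNE2, KLF2 or NFKB2. Of 17 genes for substrates of BTRC and FBXW11, 12 had a region (70.6%, beside 40.1%), FBXO5 among them. At an adjusted p under 0.05, 11 of the 17 had one (beside 34.0%). With at least the median fold enrichment the count was 6 of 17, beside 28.7%. REST had 9.43 (1.26e-71), NFE2L2 8.78 (2e-55) and WEE1 8.36 (1.45e-10). Per gene, the best values had a median of 8.78 over the 19 and 4.81 over the 12, on either side of the 7.53 of all protein-coding genes with a region.

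The values of some receptors and of their substrates are set side by side here, with no test. FBXL5 stood at 5.56 and IREB2 at 4.39 (0.0871). The smallest adjusted p of IREB2 was 0.000501, and its region with the smallest p stood at 2.24. FBXO11 stood at 12.5, and its substrates BCL6 and DTL at 5.02 (0.0309) and 3.76 (0.0912). FBXO31 stood at 12.5 and CCND1, the cyclin D1 gene, at 1.53 (1.29e-08). FBXO22 stood at 6.27, KDM4A at 2.51 and BACH1 at 18.8 (3.16e-17).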

How the data were processed

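The samples were 1 YTHDF3 RIP and 1 input library, grouped by their titles. The authors deposited 1 list of regions (peaks) of the one against the other. Per the file headers, each region carries a ratio, the fold enrichment of RIP against input, and a deposited p-value and adjusted p-value on a linear scale. Per the labels' protocols, RNA was fragmented, copied with random hexamers and tagged with molecular identifiers. The build is hg38, per the submitters' processing notes. The sources used here do not name the aligner, the caller or the annotation, nor say how molecular identifiers were used or adjusted p made. Every p was at most 0.049, and adjusted p reached 0.335. One p could come with several adjusted p.

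Starts were read as counted from 0, since 786 lay 1 below their gene's start in RefSeq (GRCh38.p14) and 68 equalled it, and are printed counted from 1. Names were matched to RefSeq by symbol (16536 regions), older symbol (762) or date (23), on the same chromosome within 100000 bases; 1145 were unmatched. Overlap with another gene's region means at least 1 base on either strand. With 1 library a group no test was run: members were counted and set beside the 19974 protein-coding genes of chromosomes 1 to 22 and X. The summaries, made with Python 3.11.15 and pandas 2.3.3, were tested on simulated regions. The named genes are the members, the 3 leading genes of each list, genes of a list without a region, and substrates of members. The values of CAND1, BTRC, LMO7 and CCNF were added after they were seen. 1 member with a region is counted but not reported by name here. Members and lists were chosen with earlier results of these data known. A planned count of the m6A motif in short regions was not made, because sequence was used here only around annotated starts, not over whole regions. Alternatives were stricter thresholds, unshared regions, other summaries per gene, other family names and other limits for short regions.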

Additional observations from a re-analysis of the deposited data

How the results depend on the processing

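The number of F-box genes with a region, 43 of 64, was 34 and 30 of 64 with adjusted p under 0.05 and 0.01. It was 33 of 64 with at least the median fold enrichment and 35 of 64 without regions shared with another gene. With the F-box genes of other symbols it was 49 of 73, and with older names 44 of 64, an alternative chosen after seeing the data. The shares of all protein-coding genes under the first 4 were 34.0%, 29.6%, 28.7% and 35.3%. The median best fold enrichment stayed between 6.27 and 7.96. The number of members with more than 1 region, 22 of 43, was 11 of 30 with adjusted p under 0.01. It was 9 of 33 with at least the median fold enrichment, since both settings leave fewer regions. Over protein-coding genes with a region the shares under these 2 settings were 42.6% and 36.6%. Under the same 2 settings the SCF and neddylation genes with a region numbered 8 and 7 of 35 in place of 13. With at least the median fold enrichment, 6 in place of 12 of the 17 substrates of BTRC and FBXW11 had a region. The share of short regions nearest the 3′ end was 40% to 70.4% over its alternatives, 40% (4 of 10) with adjusted p under 0.05. The other alternatives moved their counts by no more than 1.5 times. No paired analysis was possible because there is 1 library of each kind, and for the same reason no library could be left out. Depth is unknown and limits every fold enrichment over a low input.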
